A study of Arabidopsis thaliana with 12 samples.

Results

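Of the 16542 genes with a feature of their own on the array, 7 were described for their levels in shoots after a peptide gene was induced in roots. They are PDF1.2 (AT5G44420), CYP71B25 (AT3G26270), NHL22 (AT4G09590), AT3G15450, AT2G32160, AT1G75600 and AT1G27290. Each was measured by 1 feature annotated to it alone, and none of these features shared its values with another feature. The genes were picked from the shoot comparison itself, for p-values among the smallest or for a call within a short gene list, so their shoot differences below are descriptions without a test. No feature on the array passed the test in shoots, so the name "shoot genes shifted by root induction" stands for how the genes were chosen and not for genes shown to respond.

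The plants were Arabidopsis thaliana seedlings, 7 days old and grown under continuous light, in which estradiol switches on a CLE3 transgene. Their roots were then exposed for 24 h to estradiol (5 mM as the labels give it) or to the solvent DMSO, and roots and shoots were collected separately. Total RNA was hybridised to 12 one-colour Affymetrix arrays, 3 for each of the 4 pairings of an organ with a treatment. Groups were taken from the sample titles, because the source names state 1 treatment per organ, estradiol in roots and DMSO in shoots. All 4 groups carry the transgene, so an effect of CLE3 and an effect of estradiol on the plant cannot be told apart. No feature carried the name CLE3, so the induction itself was not checked here. Whether replicates are separate cultures is not stated, and p-values may therefore rest on technical spread alone.

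CLE genes encode small secreted peptides that are perceived by receptor kinases at the cell surface, and some peptides of this family made in roots are known to act on shoots. PDF1.2 encodes an antifungal plant defensin and is a textbook marker of jasmonate and ethylene defence signalling in leaves. CYP71B25 belongs to the cytochromes P450, a large family of oxidising enzymes that includes makers of defence compounds. NHL22 belongs to the family named after NDR1, a protein needed for some disease resistance responses, and the tobacco gene HIN1. The other 4 genes have no name beyond the locus in the annotation used here, and no role is given for them.

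The array titled root DMSO replicate 3 lay with the shoots and the array titled shoot estradiol replicate 3 lay with the roots. Across features the former correlated with shoot arrays at a mean r of 0.981, and the latter with root arrays at 0.986. The 4 root markers BGLU21, BGLU22, NAI2 and PYK10 averaged 6.78 and 11.62 on these arrays in log2 units, against 11.42 to 11.52 on the other root arrays and 6.75 to 7.41 on the other shoot arrays. Values below come from the remaining 10 arrays unless stated, which leaves 2 arrays in roots with DMSO and 2 in shoots with estradiol. Results are also given for all 12 arrays in the groups of their titles and, as values only, with the labels of these 2 arrays exchanged.

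In shoots 5 of the 7 genes were higher with estradiol and 2 were lower, and in all 7 the groups did not overlap. Over all 38408 features 21.6% had shoot groups that did not overlap, 10% higher and 11.6% lower with estradiol. Since the genes were picked on this comparison, nothing is read from the count. An unadjusted p under 0.05 in limma was found for 8.14% of features in shoots, or 4.74% on all 12 arrays, and an adjusted p under 0.05 for 0 features on either set. In bulk RNA a smaller share of a cell type and less RNA per cell cannot be told apart.

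PDF1.2 read 2.89, 1.66 and 2.83 in shoots with DMSO and 1.65 and 1.41 in shoots with estradiol (log2 values, as everywhere below). The lowest DMSO array thus lay beside the higher estradiol array, and the lower mean with estradiol rested on DMSO replicates 1 and 3. The means were 2.46 ± 0.70 (SD, n = 3) and 1.53 ± 0.17 (SD, n = 2), a difference of -0.93 (SE 0.37). Leaving out single arrays moved it between -1.33 and -0.72. In roots the defensin gene read 1.64 and 1.38 with DMSO and 1.32, 1.42 and 1.97 with estradiol, about the level of shoots with estradiol.

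Near-identical copies of this defensin gene did not share the pattern. PDF1.2b read 3.17, 3.80 and 2.70 in shoots with DMSO and 3.71 and 2.63 with estradiol. PDF1.2c read 2.01, 1.80 and 1.49 with DMSO and 1.61 and 1.99 with estradiol. In both copies the groups overlapped. How far the features separate these copies was not tested.

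NHL22 read 2.43, 2.28 and 2.41 in shoots with DMSO and 3.43 and 3.39 with estradiol. Replicates within each group lay close together, and the estradiol arrays stood above every other array of the 10. The means were 2.37 ± 0.08 (SD, n = 3) and 3.41 ± 0.03 (SD, n = 2), a difference of 1.04 (SE 0.18) or 2.05-fold. Root arrays lay between the shoot groups, at 2.47 and 2.80 with DMSO and 3.02, 2.52 and 2.98 with estradiol.

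CYP71B25 read 2.84, 2.83 and 2.50 in shoots with DMSO and 3.82 and 3.78 with estradiol. Again only shoots with estradiol stood out, because root arrays read 2.59 and 2.66 with DMSO and 2.88, 3.02 and 2.48 with estradiol. The shoot means were 2.72 ± 0.19 (SD, n = 3) and 3.80 ± 0.03 (SD, n = 2), a difference of 1.08 (SE 0.18) or 2.11-fold. Roots and shoots with DMSO did not differ beyond their spread for this P450 gene.

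AT1G75600 had the same shape. It read 3.40, 3.32 and 3.31 in shoots with DMSO and 4.43 and 4.54 with estradiol, a difference of 1.14 (SE 0.18) or 2.21-fold between means of 3.34 ± 0.05 (SD, n = 3) and 4.49 ± 0.08 (SD, n = 2). Root arrays read 3.25 and 3.03 with DMSO and 3.63, 3.61 and 3.06 with estradiol, so that shoots with estradiol were again the highest group.

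AT2G32160 was lower in shoots with estradiol. It read 3.82, 3.67 and 3.53 with DMSO and 2.75 and 2.76 with estradiol, a difference of -0.92 (SE 0.12) between means of 3.67 ± 0.15 (SD, n = 3) and 2.76 ± 0.01 (SD, n = 2). Roots read 2.85 and 2.78 with DMSO and 2.39, 2.42 and 2.50 with estradiol. The order was therefore shoots with DMSO highest, then roots with DMSO and shoots with estradiol close together, then roots with estradiol.

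AT1G27290 read 5.01, 4.91 and 4.71 in shoots with DMSO and 5.48 and 5.41 with estradiol, a difference of 0.57 (SE 0.12) or 1.49-fold. The 5 root arrays lay between 5.39 and 5.44 whatever the treatment. Shoots with DMSO, at 4.88 ± 0.15 (SD, n = 3), were thus the group that stood apart, and the other 3 groups did not differ beyond their spread.

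AT3G15450 was the brightest of the 7 genes, with replicates that lay far apart. It read 9.86, 9.62 and 9.08 in shoots with DMSO and 10.66 and 10.22 with estradiol. The means of 9.52 ± 0.40 (SD, n = 3) and 10.44 ± 0.31 (SD, n = 2) differed by 0.92 (SE 0.35) or 1.89-fold, and leaving out single arrays gave 0.69 to 1.14. Roots read 10.59 and 10.36 with DMSO and 10.99, 10.34 and 9.79 with estradiol, a range that takes in both shoot estradiol arrays. In each of the 4 groups the values fell with the replicate number in the titles. Shoots with estradiol hold no replicate 3 among the 10 arrays, whereas replicate 3 was the lowest in shoots with DMSO. With the replicate number added to the fit the shoot difference was 0.66.

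**Figure D1:**
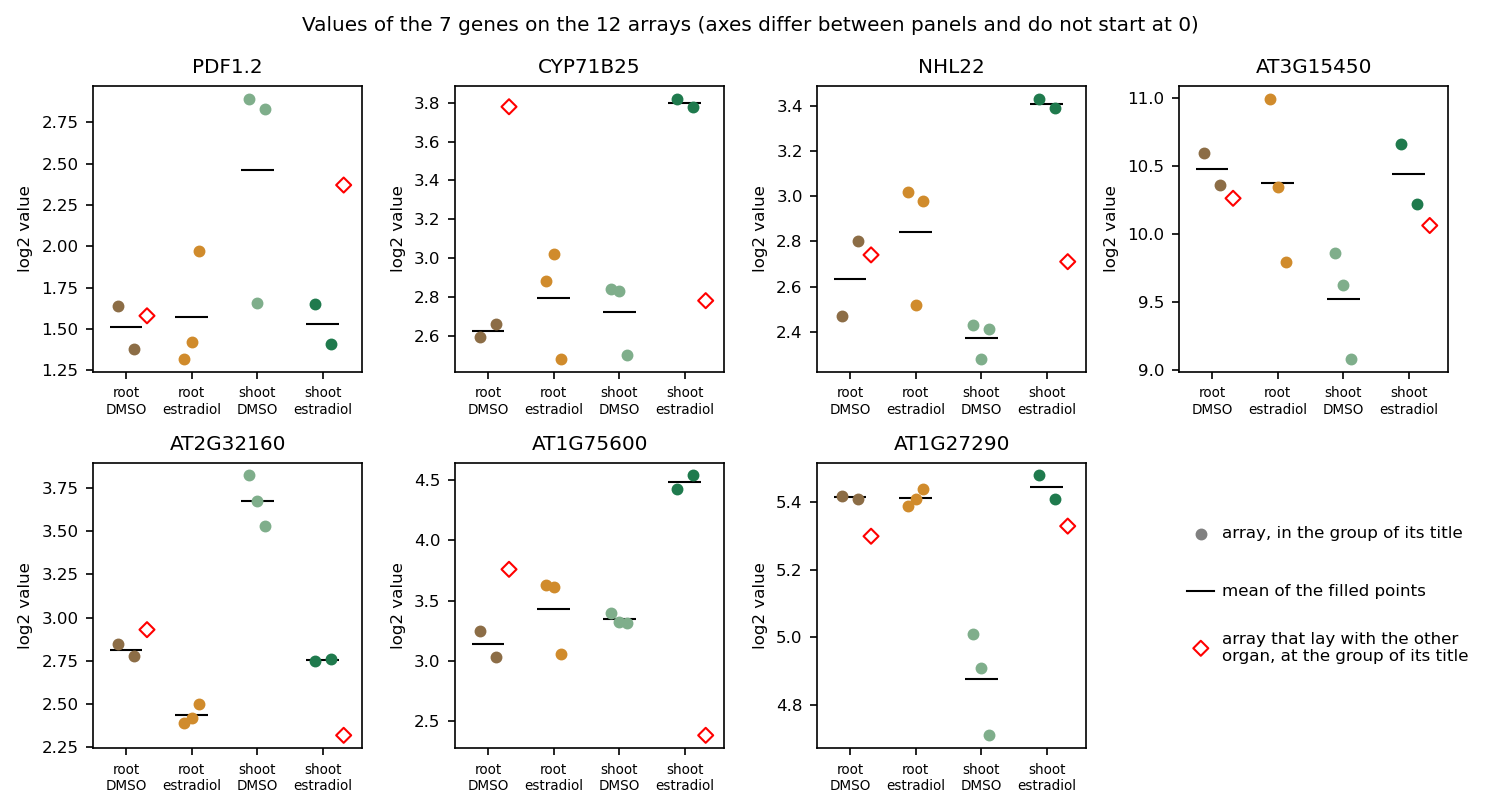
Log2 values of the 7 genes (1 panel each) on every array, by organ and treatment; filled points are the 10 arrays used, lines are their group means, and open red diamonds are the 2 arrays that lay with the other organ, drawn at the group of their title. In shoots the filled estradiol points lie beyond all DMSO points in each panel, by 0.01 in PDF1.2.

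Most of these genes read low on the array. The mean over the 10 arrays was 1.82 for PDF1.2, at the percentile 5.33 of all features. NHL22 (2.77), CYP71B25 (2.94) and AT2G32160 (2.95) also lay below the lower quartile of features, at percentiles of 20.2, 22.7 and 22.8. AT1G75600 stood at percentile 30.9 with 3.56 and AT1G27290 at 52.9 with 5.26. AT3G15450 alone was among bright features, at 10.15 and percentile 97.1. Detection calls were not used here, so whether the 4 dimmest features measured their transcripts above background is unknown.

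The size of the shoot differences was set against features of like level, within 0.25 of the gene's own mean. The genes were picked on these differences, so the shares below are descriptions and nothing is read from their size. A difference at least as large was found in 5.57% of such features for PDF1.2, 5.16% for AT2G32160 and 9.87% for AT1G27290. For CYP71B25, NHL22 and AT1G75600 the shares were 3.76%, 3.08% and 2.24%. For AT3G15450 the share was 0.236% of 423 features, itself included, so no other feature of that brightness differed as much. Its replicates also spread more than theirs, with a within-group SD of 0.38 in shoots and 0.50 in roots against medians of 0.11 and 0.11. The opposite held for AT2G32160 and AT1G27290 in roots, where the SD was 0.06 and 0.02 against medians of 0.27 and 0.19. The fit shared its spread between the organs, so a small root spread also entered the p-values that picked the genes.

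**Figure D2:**
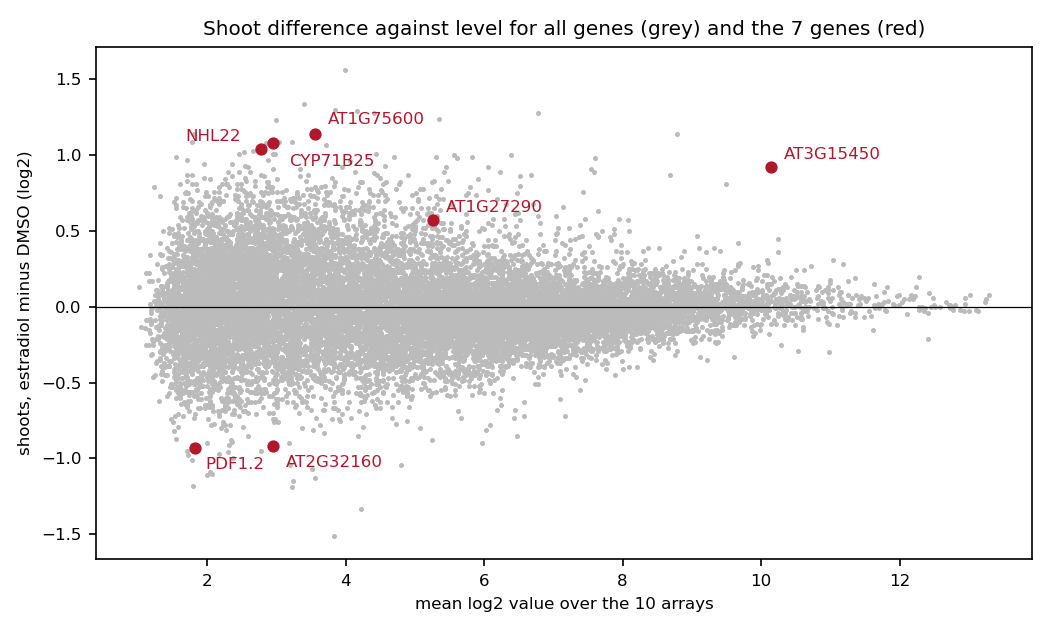
Difference between estradiol and DMSO in shoots (log2, vertical) against the mean log2 value over the 10 arrays (horizontal) for all 16542 genes in grey and the 7 genes in red. AT3G15450 at 10.15 stands outside the narrow cloud of bright genes, while PDF1.2, NHL22, CYP71B25, AT2G32160 and AT1G75600 lie at the dim end where differences scatter widely. The 7 genes were picked on this shoot comparison.

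The ranks of the 7 genes in the shoot comparison depended on the 2 doubted arrays. Among the 16542 genes ordered by p on the 10 arrays, AT2G32160 ranked 1, AT1G75600 4, CYP71B25 5, NHL22 9, AT1G27290 41, AT3G15450 810 and PDF1.2 896. On all 12 arrays AT2G32160 again ranked 1 and AT1G27290 ranked 10. NHL22 then ranked 44, AT3G15450 362, CYP71B25 869, PDF1.2 1334 and AT1G75600 7965. The best-ranked gene outside the 7 in each direction was AT1G65541 among lower genes, at rank 2 with 4.50, 4.18 and 4.41 in shoots with DMSO and 2.77 and 2.93 with estradiol, and AT3G18773 among higher genes, at rank 6 with 8.59, 8.25 and 8.14 against 9.65 and 9.28. These 2 genes differed by -1.51 (SE 0.20) and 1.14 (SE 0.19), so the 7 genes are not the whole top of the ranking.

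In roots, the treated organ, none of the 7 genes passed the test. The root arrays are outside the shoot comparison that picked the genes, apart from the shared spread named above. In limma 0 of 7 had an adjusted p under 0.05 over all features (adjusted p 0.999 for each), where 0.00260% of features did (1 of 38408). An unadjusted p under 0.05 was found for 3.75% of features, or 2.18% on all 12 arrays. The root groups did not overlap for 1 of the 7 genes, AT2G32160, against 21.0% of all features, 9.65% higher and 11.3% lower with estradiol. On all 12 arrays it was again AT2G32160 alone, against 9.47% of features, 4.24% higher and 5.24% lower.

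AT2G32160 was lower with estradiol in roots as well, at 2.44 ± 0.06 (SD, n = 3) against 2.82 ± 0.05 (SD, n = 2). Its difference of -0.38 (SE 0.12) had a 95% interval of -0.65 to -0.10. AT1G75600 had a root difference of 0.29 (SE 0.18), NHL22 of 0.21 (SE 0.18) and CYP71B25 of 0.17 (SE 0.18), all within the spread of the arrays. The 95% intervals of these 3 genes were -0.12 to 0.71, -0.19 to 0.61 and -0.24 to 0.58. AT1G27290 had the tightest root values, with an interval of -0.27 to 0.27. The widest intervals were those of PDF1.2 (-0.78 to 0.89) and AT3G15450 (-0.91 to 0.70). The shoot differences are no yardstick for these intervals, because the genes were picked for them.

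The sign was the same in roots and shoots for 5 of the 7 genes, against 54.6% of all features. Among these is AT1G27290, whose root difference was 0.0 (SE 0.12). Only AT2G32160 had a root interval that leaves out 0, so nothing is read from the count. The difference between the organs (shoots minus roots) was 0.91 (SE 0.26) for CYP71B25, 0.85 (SE 0.26) for AT1G75600, 0.82 (SE 0.25) for NHL22 and 0.57 (SE 0.17) for AT1G27290. It was -0.54 (SE 0.17) for AT2G32160, -0.99 (SE 0.52) for PDF1.2 and 1.02 (SE 0.50) for AT3G15450. These values contain the shoot comparison that picked the genes and were not tested.

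**Figure D3:**
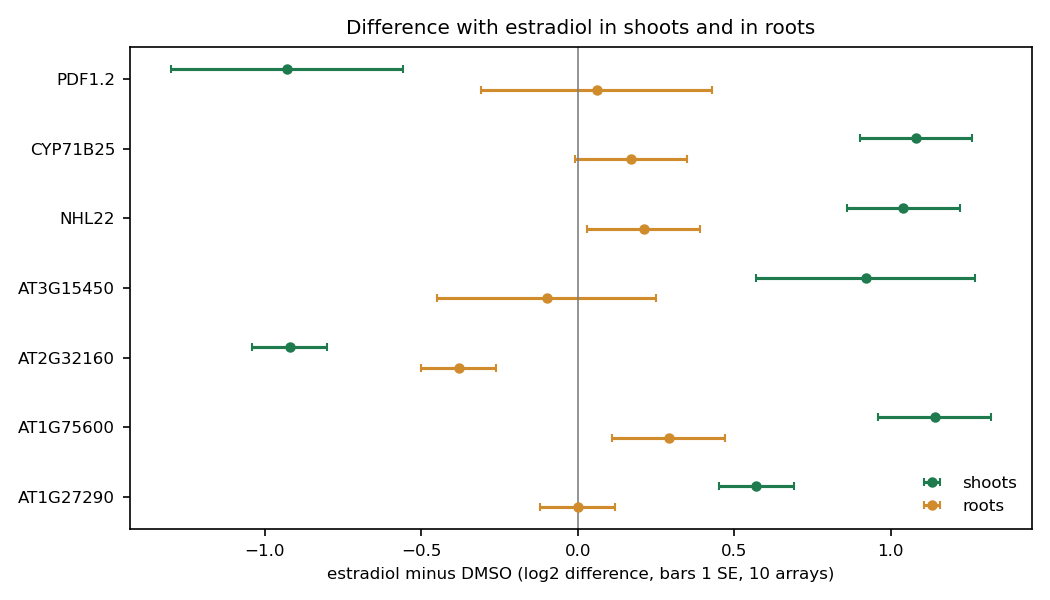
Difference between estradiol and DMSO (log2, horizontal) for each gene in shoots (green) and roots (orange) on the 10 arrays, with bars of 1 SE. Root points lie between -0.38 (AT2G32160) and 0.29 (AT1G75600), nearer to 0 than the shoot point in every gene. The genes were picked on the shoot comparison, so this order follows in part from the choice.

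The organs themselves were compared as the mean of the 5 root arrays minus the mean of the 5 shoot arrays, a value that is uncorrelated with the shoot difference used to pick the genes, though it shares the spread of the fit. In limma 4 of 7 genes passed, where 50.8% of all features did, a share near that of the genes. An unadjusted p under 0.05 was found for 56.9% of features. AT2G32160 was lower in roots by 0.72 on the log2 scale (difference -0.72, SE 0.08, adjusted p 9.14e-05). AT1G75600 (difference -0.48, SE 0.13, adjusted p 0.0115) and CYP71B25 (difference -0.43, SE 0.13, adjusted p 0.0192) were also lower in roots. AT1G27290 was higher in roots (difference 0.31, SE 0.08, adjusted p 0.0127). AT3G15450 (0.53, SE 0.24, adjusted p 0.103), PDF1.2 (-0.54, SE 0.25, adjusted p 0.108) and NHL22 (-0.03, SE 0.12, adjusted p 0.867) did not pass. On all 12 arrays 0 of 7 passed in limma, and so did 0 features, with 37.3% of features at an unadjusted p under 0.05.

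The calls for CYP71B25 and AT1G75600 depended on shoots with estradiol. Without estradiol replicate 1 the adjusted p was 0.164 and 0.0954, and without replicate 2 it was 0.148 and 0.12. Without a shoot array the comparison is no longer uncorrelated with the choice of genes. Under DMSO alone the difference between roots and shoots was -0.10 (SE 0.18) for CYP71B25 and -0.20 (SE 0.18) for AT1G75600, values that contain shoot arrays used in that choice and stand as a description. The call for CYP71B25 was also lost without root DMSO replicate 1 (adjusted p 0.0534) and after quantile normalization (-0.30, adjusted p 0.0761), and that for AT1G27290 without shoot DMSO replicate 3 (0.0597). AT3G15450 passed without root estradiol replicate 3 (0.0315) and PDF1.2 without shoot DMSO replicate 2 (0.0095) or with array weights on all 12 arrays (0.0363).

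Set against the root level, shoots with estradiol lay nearer than shoots with DMSO in some of the 7 genes and farther in the others. In PDF1.2, AT3G15450, AT2G32160 and AT1G27290 the shoot mean lay nearer to the root mean with estradiol than with DMSO. For PDF1.2 the shoot mean stood 0.91 above the root mean with DMSO and -0.02 from it with estradiol, and for AT3G15450 these distances were -0.89 and 0.02. For AT1G27290 they were -0.54 and 0.03, and for AT2G32160 1.08 and 0.17. In CYP71B25, NHL22 and AT1G75600 the shoot mean with estradiol lay farther away, at 1.07, 0.65 and 1.17 above the root mean. NHL22 crossed the root level, from -0.39 with DMSO. Over all features 49.5% lay nearer to the root mean with estradiol, so 4 of 7 is close to the background. The shoot means come from the arrays that picked the genes, so nothing is read from this split.

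Markers of the other organ were read beside these distances. The 4 root markers averaged 6.75 and 7.41 in shoots with estradiol and 7.03 to 7.24 in shoots with DMSO, so 1 estradiol array lay below and 1 above the DMSO arrays. BGLU21 read 3.71 and 4.47 with estradiol against 2.89, 3.87 and 3.72 with DMSO, and BGLU22 read 2.20 and 3.61 against 3.67, 2.55 and 3.06. NAI2 and PYK10 read 9.70 to 9.88 and 11.40 to 11.70 with estradiol against 9.97 to 10.30 and 11.69 to 11.87 with DMSO. NAI2 was thus lower with estradiol on both arrays, while BGLU21, BGLU22 and PYK10 overlapped between the groups. The 4 photosynthesis genes SBPASE, PRK, RCA and LHCB4.1 averaged 10.59 and 10.71 with estradiol and 10.62 to 10.68 with DMSO. The part of these marker levels in the result was not tested.

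**Figure D4:**
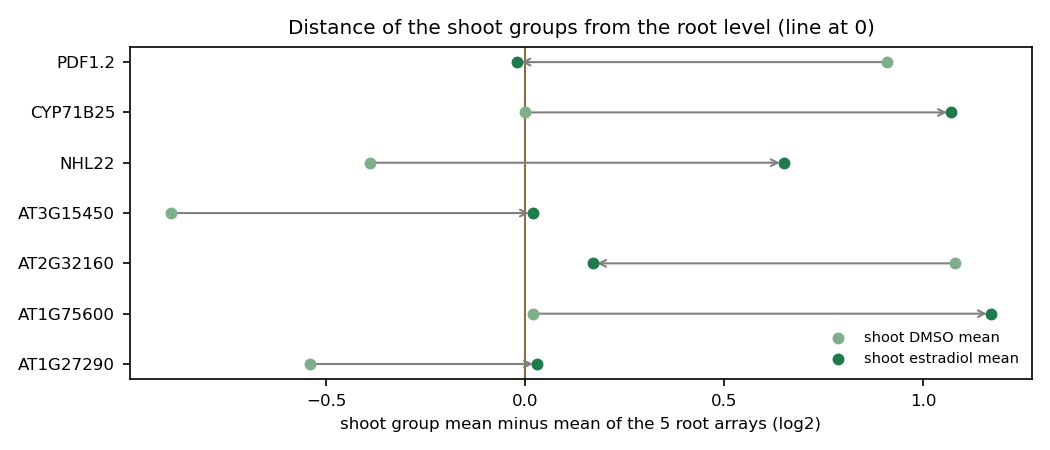
Mean of each shoot group minus the mean of the 5 root arrays (log2, horizontal) for the 7 genes on the 10 arrays, with an arrow from shoots with DMSO (light) to shoots with estradiol (dark). Arrows end near 0 for PDF1.2, AT3G15450, AT2G32160 and AT1G27290 and point away from it for CYP71B25 and AT1G75600.

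The array titled root DMSO replicate 3 belonged to neither shoot group by its title. On it PDF1.2 read 1.58, CYP71B25 3.78, NHL22 2.74, AT3G15450 10.26, AT2G32160 2.93, AT1G75600 3.76 and AT1G27290 5.30. In all 7 genes this value lay past every shoot DMSO array on the side of shoots with estradiol. Among all features this held for 32.4%, and among those whose shoot groups do not overlap for 53.5%. Among features with an unadjusted p under 0.05 in shoots it held for 57.7%. It lay nearer to the estradiol than to the DMSO mean in 5 of the 7 genes, against 47.7% of all features and 47.6% of those whose shoot groups do not overlap. All 7 values lay within the range of the 5 shoot arrays, as for 72.1% of features. NHL22 and AT1G75600 lay nearer to the DMSO mean, at 0.35 and 0.37 of the way from it to the estradiol mean. CYP71B25 was at 0.98. The shoot arrays that set the sides and means also picked the genes, so nothing is read from these counts. No array was assigned to a treatment from these values.

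The array titled shoot estradiol replicate 3 gave a less even picture. On it CYP71B25 read 2.78, NHL22 2.71 and AT3G15450 10.06, inside the range of the 5 root arrays. The other 4 genes lay outside that range, with PDF1.2 at 2.37 above it and AT1G75600 at 2.38, AT2G32160 at 2.32 and AT1G27290 at 5.33 below it. Inside the root range were thus 3 of 7 genes, against 63.1% of all features.

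With all 12 arrays in the groups of their titles, the shoot groups stayed apart for 4 of the 7 genes (NHL22, AT3G15450, AT2G32160 and AT1G27290), against 10.9% of all features, 4.68% higher and 6.26% lower. AT1G75600 moved most, from 1.14 to 0.44 (SE 0.49), since estradiol replicate 3 read 2.38. CYP71B25 had 0.74 (SE 0.36), NHL22 0.80 (SE 0.22), PDF1.2 -0.65 (SE 0.36) and AT3G15450 0.79 (SE 0.31). AT2G32160 had -1.06 (SE 0.15), a larger difference than on the 10 arrays, and AT1G27290 had 0.53 (SE 0.13).

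With both labels exchanged the shoot groups did not overlap in any of the 7 genes, by 0.01 in PDF1.2. The share over all features was not computed for this arrangement. It also holds the shoot arrays that picked the genes, so nothing is read from the count. The shoot differences were then 1.07 (SE 0.15) for CYP71B25, 0.90 (SE 0.26) for AT1G75600, 0.81 (SE 0.20) for NHL22, 0.86 (SE 0.30) for AT3G15450 and 0.52 (SE 0.10) for AT1G27290. AT2G32160 had -0.86 (SE 0.14) and PDF1.2 -0.91 (SE 0.34). The lower root level of AT2G32160 did not stay apart in this arrangement, because the added array at 2.32 read below the roots with estradiol, and the root difference was -0.21 (SE 0.14). The root difference of AT1G75600 became 0.55 (SE 0.26), again through its value of 2.38 on that array.

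**Figure D5:**
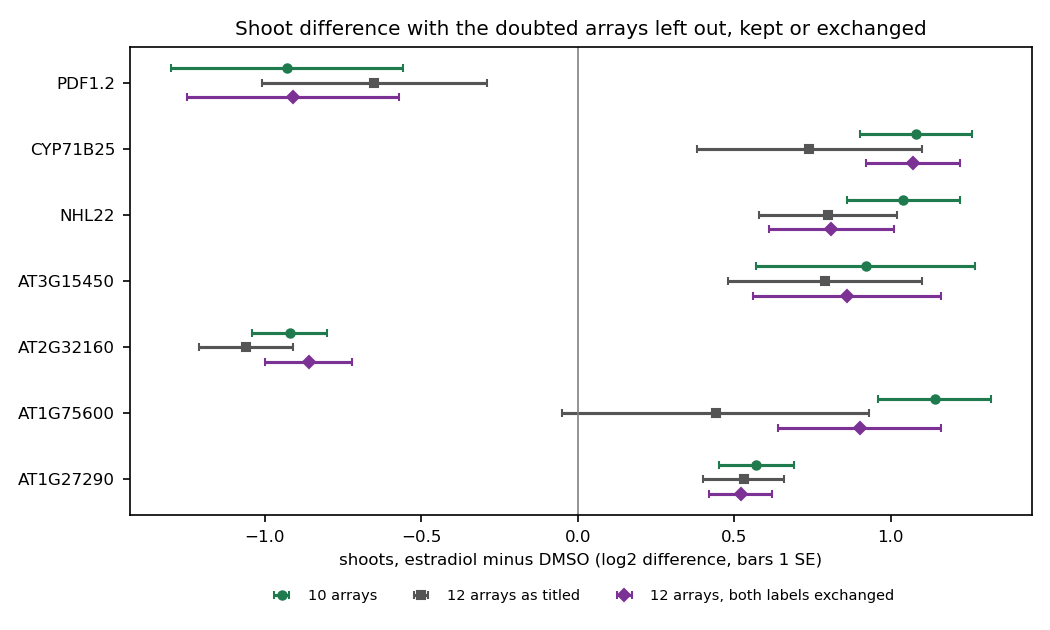
Difference between estradiol and DMSO in shoots (log2, bars 1 SE) for each gene on the 10 arrays (green circles), on all 12 arrays as titled (grey squares) and with the labels of both doubted arrays exchanged (purple diamonds). Every point keeps its sign, and AT1G75600 moves most, from 1.14 to 0.44 on the 12 arrays as titled.

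Relatives of the named genes were read for comparison from lists of families and pathways. Of 14 other plant defensin genes 0 passed in limma in either organ, and 1 had an unadjusted p under 0.05 in shoots and 0 in roots. Over all features 0 passed in shoots and 1 in roots, and the unadjusted shares were 8.14% and 3.75%. In shoots the difference was positive in 11 and negative in 3, and the median was 0.13. Over all 16542 genes 7817 were positive and 8725 negative, with a median of -0.01. LCR69 and LCR68, bright defensin genes, differed by 0.15 (SE 0.21) and 0.02 (SE 0.14) in shoots, PDF2.5 by 0.34 (SE 0.18) and PDF1.4 by 0.11 (SE 0.22). The negative difference of PDF1.2 was therefore not found in most of its family.

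Of 19 other CYP71B genes 0 passed in limma in either organ, with 1 in shoots and 3 in roots at an unadjusted p under 0.05, where 8.14% and 3.75% of all features were. In shoots 5 were positive and 14 negative, with a median of -0.14 and a highest value of 0.62, below the 1.08 of CYP71B25. The split over all genes was 7817 positive to 8725 negative. The brightest were CYP71B29 with 0.18 (SE 0.14), CYP71B6 with -0.03 (SE 0.12), CYP71B34 with -0.38 (SE 0.25) and CYP71B5 with -0.26 (SE 0.19). NHL25 was the only gene measured from the list for the family of NHL22, a list that need not hold the whole family. It read lower with estradiol in shoots, with a difference of -0.59 (SE 0.30). Of 17 genes of jasmonate and ethylene defence 2 were measured, and their shoot differences were 0.04 (SE 0.11) for the transcription factor EIN3 and -0.04 (SE 0.15) for the thionin gene THI2.1. Of 4 measured among 13 histone H3 genes 2 were positive and 2 negative in shoots, among them the centromeric histone gene HTR12 at -0.06 (SE 0.13), and 0 passed.

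The genes most alike in pattern were sought among the 7898 genes with a mean of at least 5, by Pearson correlation over the 10 arrays after removing each organ's mean. The highest values among so many genes are descriptions, and the arrays share organ and treatment with the choice of the 7 genes. For CYP71B25 these were AT4G24200 (r = 0.93) and AT1G27290 (r = 0.91), itself 1 of the 7 genes. For AT1G27290 they were PHOS32 (0.94) and again AT4G24200 (0.93), whose shoot differences were 0.36 (SE 0.12) and 0.38 (SE 0.11). AT1G75600 was most like AT3G18773 (0.91) and AT4G18335 (0.91). AT2G32160 was most like TBL19 (0.93), of a family that acts in acetylation of cell wall polysaccharides, and ATLIG4 (0.93), a DNA ligase of double-strand break repair. Their shoot differences were -0.55 (SE 0.13) and -0.30 (SE 0.10).

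The remaining genes had close matches with smaller changes. AT3G15450 was most like AT1G16170 (r = 0.96) and AT1G33590 (0.94), with shoot differences of 0.40 (SE 0.21) and 0.36 (SE 0.16). NHL22 was most like AT3G60980 (0.94) and AT3G52100 (0.94), with 0.26 (SE 0.11) and 0.27 (SE 0.11). PDF1.2 was most like AT5G14720 (0.95) and AT3G53930 (0.94), bright genes whose shoot differences were -0.12 (SE 0.12) and -0.18 (SE 0.15).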

How the data were processed

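The authors processed the arrays with Affymetrix Expression Console 1.3, per the submitters' processing notes, with settings unstated there. For 38408 features the deposited table ranges from 0.19 to 13.84, and was read as log2 values on that ground alone. Medians of the 10 arrays ranged from 4.99 to 5.09. Precision is limited by how few arrays there are.

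Features were named through the platform annotation, with symbols from RefSeq (TAIR10.1) by gene identifier. Of all features 16722 had 1 gene, 759 several and 20927 were unlisted. A gene took its feature with the highest mean. The means of the 4 groups were fitted with limma 3.58.1 in R 4.3.3 (lmFit, eBayes, two-sided), with Benjamini-Hochberg adjustment over all features and a threshold of 0.05. The fit was tested on simulated data.

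The 7 genes, the lists, the tests and the omission of 2 arrays were chosen with earlier results of these data known. Named beside the 7 were 2 genes of most similar pattern each, the 4 brightest of each list, the best-ranked other gene in each direction and the organ markers. Of the lists for darkness and low sugar (16 genes) and salicylate defence (9 genes) 0 genes had a feature named for them alone, so these were not analysed here. Alternatives covered arrays used, replicate block, spread, quantile normalization, a filter, weights and single arrays left out.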

Additional observations from a re-analysis of the deposited data

How the results depend on the processing

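The 121 alternative values of the shoot differences kept their sign, and of the 121 for roots none with a test passed the threshold. Many of these values repeat the main value by design, for example where only an array of the other organ was left out. The genes were picked for their shoot differences, so nothing is read from the shared sign. All 12 arrays as titled gave 4 genes with separate shoot groups (7 on the 10 arrays), 0 genes and 0 features called between the organs (4 and 19513), and 0 features called in roots (1). Between the organs, leaving out single arrays gave 2 to 5 genes and 17952 to 19183 features. A filter on group means of at least 5 left 2 of the genes, of which 1 was called, beside 15400 of the 22124 features left. The root minus shoot difference under DMSO alone put 2 of the 7 genes past the threshold, beside 15038 of 38408 features. Under estradiol alone the same difference put 3 of the 7 genes past the threshold, beside 15096 of 38408 features. That of AT1G27290 was then -0.03 (SE 0.12). Both contain shoot arrays that picked the genes and support nothing. Where leaving out an array left a group with 1, that array was assumed to vary like the other groups. Leaving out single arrays gave 0 to 1 features called in roots and 0 to 4 in shoots. Without shoot DMSO replicate 1 there were 4 in shoots, without shoot estradiol replicate 2 there were 2, and without root DMSO replicate 1 there were 0 in roots.

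With a replicate block, which uses the number in the titles, 0 features were called in roots and 5 of the genes between the organs, AT3G15450 being added (adjusted p 0.00452). Deviations of same-numbered arrays correlated at -0.021 to 0.118, most of them positively, and those of other arrays at -0.118 to 0.112. In groups of 2 arrays the deviations are mirror images of each other. These ranges therefore cannot decide whether same-numbered arrays belong together. The number was left out of the main fit. Dim features limit the reading of PDF1.2, NHL22, CYP71B25 and AT2G32160. The causes of these shifts were not tested.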
